A study of Mus musculus with 24 samples.

Results

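The 42 genes described here encode lysosomal hydrolases, the closely allied membrane enzyme HGSNAT and 2 lysosomal activator proteins, and they were followed in mouse melanoma cells that lack MITF, TFEB, TFE3 or combinations of them. The members were given as a list of gene symbols, and the rule that picks them uses no measured value, although the list was drawn up with earlier results of these data known. Of the 42 symbols, 41 matched a row of the expression table, which holds 12010 genes, and Ctss was not analysed here. The table covers 8 lines of B16-F10-luc2 cells, a luciferase-carrying derivative of the B16-F10 mouse melanoma line, with 3 libraries each: the parental cells, the single knockouts MITF KO, TFE3 KO and TFEB KO, the double knockouts TFEB/TFE3 DKO, MITF/TFE3 DKO and MITF/TFEB DKO, and the triple knockout TKO. All lines were grown in the same full medium with serum, with no drug or starvation, and each KO line came from a clonally isolated cell edited by CRISPR, so that a difference between lines cannot be told apart from a difference between clones. Nothing in the labels says that the 3 libraries of a line came from separate cultures, so the p-values measure the spread between these libraries, which may be technical.

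Lysosomal hydrolases are soluble enzymes that cut proteins, glycans, lipids and phosphate esters at acid pH. They are made in the endoplasmic reticulum, most of them are tagged with mannose 6-phosphate in the Golgi, and many are cut to their mature form after arrival in the lysosome. Activator proteins such as the saposins, released from prosaposin, and the GM2 activator lift lipids out of membranes so that the soluble enzymes can reach them. MITF, TFEB and TFE3 belong to one family of basic helix-loop-helix leucine zipper factors that recognize E-box sequences, and TFEB is best known as an activator of lysosomal genes. In melanocytes the same enzymes serve both ordinary lysosomes and the related melanosomes.

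Because the 3 factors share a binding sequence, the promoter windows of the members were searched for it. RefSeq windows of build GRCm38.p6, each running from 250 bases before to 50 bases after a transcription start, were matched for 34 of the 41 members, and Ctsb, Ctsh, Asah1, Aga, Galns, Plbd2 and Hgsnat have no entry. The hexamer CACGTG, its extensions TCACGTG and TCACGTGA, which contain it, and the related TCATGTGA were searched on both strands. The 34 members had 41 windows, as a gene can have more than 1. TCACGTG lay in 9 of these windows, or 22.0%, against 6.16% of the 12312 windows of genes in the table. Of all 32851 windows 3.77% held it. By gene, 26.5% of the 34 members held it, against 7.33% of the table's genes with a window. The full palindrome TCACGTGA was present in 3 of the members' windows, or 7.32%, against 1.91% of the windows of the table's genes, and CACGTG in 11 of them, or 26.8%, against 10.1%. TCATGTGA lay in 3 of the windows, or 7.32%, those of Gla, Ppt1 and Tpp1, against 0.796% for the table's genes. The 9 members with TCACGTG were Arsa, Ctsa, Ctsd, Gaa, Gla, Glb1, Lgmn, Naglu and Sgsh. A match describes letters in a window and does not show that a factor binds there.

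The stretches around the sites are shown for the 7 of these members that were called lower in at least 1 line lacking TFEB or TFE3 than in the matching MITF-null line that keeps it. Each is written 5′ to 3′ on the strand of its gene, with the 8 letters centred on CACGTG in capitals. Ctsa, Ctsd and Gla hold the full palindrome, in Ctsa and Gla at 2 places each, and Naglu, Glb1, Gaa and Arsa hold TCACGTG with another last letter. Ctsd has a further site near the far end of its window, where TCACGTG reads on the other strand. The Ctsa sites lie at chr2:164833749-164833778 and chr2:164833766-164833795 on the plus strand and are centred 9 bases before and 8 bases after the start. The Gla sites lie at chrX:134601215-134601244 and chrX:134601182-134601211 on the minus strand, and the Ctsd sites at chr7:142388055-142388077 and chr7:142387908-142387937 on the minus strand. The Naglu site lies at chr11:101070009-101070038 and the Gaa site at chr11:119267811-119267840, both on the plus strand. The Glb1 site lies at chr9:114401018-114401047 on the plus strand and the Arsa site at chr15:89477423-89477452 on the minus strand.
Ctsa, upstream site: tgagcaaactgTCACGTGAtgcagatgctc
Ctsa, site past the start: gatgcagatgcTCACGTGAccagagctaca
Ctsd, distal site: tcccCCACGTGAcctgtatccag
Ctsd, proximal site: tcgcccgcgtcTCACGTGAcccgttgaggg
Gla, distal site: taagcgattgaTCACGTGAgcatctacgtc
Gla, proximal site: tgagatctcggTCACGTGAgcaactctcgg
Naglu: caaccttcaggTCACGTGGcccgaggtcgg
Glb1: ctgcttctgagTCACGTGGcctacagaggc
Gaa: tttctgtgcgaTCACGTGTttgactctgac
Arsa: tcaactcagtgTCACGTGTtgtctgctcct

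Values are given in CPM, the usual depth-scaled unit in which reads on a gene are taken relative to the total of its library, here after a further scaling between libraries. The reads are tags from the 3′ ends of transcripts, so they were not divided by gene length. In such bulk libraries, fewer cells with a transcript and less of it per cell cannot be told apart. Reads on genes ranged from 18300902 to 26667877 per library. Differences are given on the scale of log2(CPM + 1), on which changes at low levels come out smaller than they are. A member was called at a Benjamini-Hochberg adjusted p under 0.05 over all 12010 genes, from a limma fit of the 24 libraries. The 6 melanocyte markers Mlana, Pmel, Tyr, Tyrp1, Dct and Sox10 were present in every line. They summed to between 25336 and 38963 CPM in the libraries of the parental cells and of the KO lines other than MITF/TFEB DKO and TKO, and to between 15500 and 19046 CPM in MITF/TFEB DKO and TKO. In those 2 lines Mlana, Pmel, Tyr, Tyrp1 and Dct lay below every parental library, whereas Sox10 lay above. Tyr was at 127, 133 and 134 CPM in parental cells and at 8.78, 7.66 and 8.60 CPM in TKO. Sox10 was at 708, 762 and 723 CPM in parental cells and at 1036, 994 and 988 CPM in TKO. Of 7 markers of other cells, Col1a1, Pecam1 and Krt14 were in the table, and they summed to between 1.96 and 33.1 CPM. Krt14 had 0 reads in each parental library, 155 to 465 in the libraries of MITF/TFEB DKO and TKO, and at most 4 elsewhere. Pecam1 had 172 to 199 reads in parental libraries and at most 44 in those without MITF. The part of these marker changes in the members' changes was not tested.

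The targeted genes were read from 3′ tags, which count a transcript whether or not its reading frame is intact. Tfeb fell from 8.80 ± 1.34 CPM (SD, n = 3) in parental cells to 2.88 ± 0.809 in TFEB KO, 3.19 ± 0.619 in MITF/TFEB DKO, 3.10 ± 0.296 in TKO and 5.12 ± 0.171 in TFEB/TFE3 DKO. Tfe3 fell from 37.1 ± 1.56 CPM to between 8.63 and 11.3 in TFE3 KO, TFEB/TFE3 DKO and MITF/TFE3 DKO, and to 19.8 ± 2.09 in TKO. In MITF KO both were higher by limma, Tfeb at 15.5, 22.7 and 16.8 CPM (log2 difference 0.97, adjusted p = 0.00017) and Tfe3 at 51.3, 54.2 and 49.5 CPM (0.47, adjusted p = 0.022). Tfeb was at 10.7, 13.6 and 9.55 CPM in MITF/TFE3 DKO, and Tfe3 at 56.3, 62.5 and 50.3 CPM in MITF/TFEB DKO. The part of these levels in the members' changes was not tested. Mitf transcript rose from 776 ± 18.5 CPM to 1397 ± 63.3 in MITF KO and 1192 ± 84.8 in MITF/TFE3 DKO, and fell to 580 ± 32.0 in MITF/TFEB DKO and 335 ± 12.9 in TKO. The Mitf tag is therefore no check of the MITF KO label, since the edit shifts the reading frame and can leave the transcript in place. The study also saw a faint, faster band with an MITF antibody in the MITF KO cells. It proposes that a little truncated MITF may be made there. Lines described here as without MITF or MITF-null are so by their edited genotype.

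The members summed to 3976 ± 55.2 CPM in parental cells, and their mean levels over all libraries ran from 1.38 CPM for Ctso to 744 CPM for Ctsd. The median member stood at 44.9 CPM, against 24.9 CPM for the median gene of the table. Ctsd, the aspartic protease cathepsin D, and Psap, the precursor of the saposins, held 34.0% of the summed level. Ctsz, the carboxypeptidase cathepsin Z, came next at 315 CPM. The sum was highest in MITF KO, at 4874 ± 232 CPM, and was 4641 ± 199.8 in MITF/TFE3 DKO and 4465 ± 228 in MITF/TFEB DKO. In TKO it was 4006 ± 104, near the parental value, and in the 3 KO lines with MITF it lay between 4087 and 4203. Without Ctsd and Psap the other 39 members summed to 2726 ± 88.9 CPM in parental cells, 3363 ± 77.6 in MITF KO and 2431 ± 21.4 in TKO, with the 3 TKO libraries below every library of the parental cells. In MITF/TFEB DKO they summed to 2709 ± 53.8 CPM, close to the parental value, so that its higher total came from Ctsd and Psap.

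**Figure D1:**
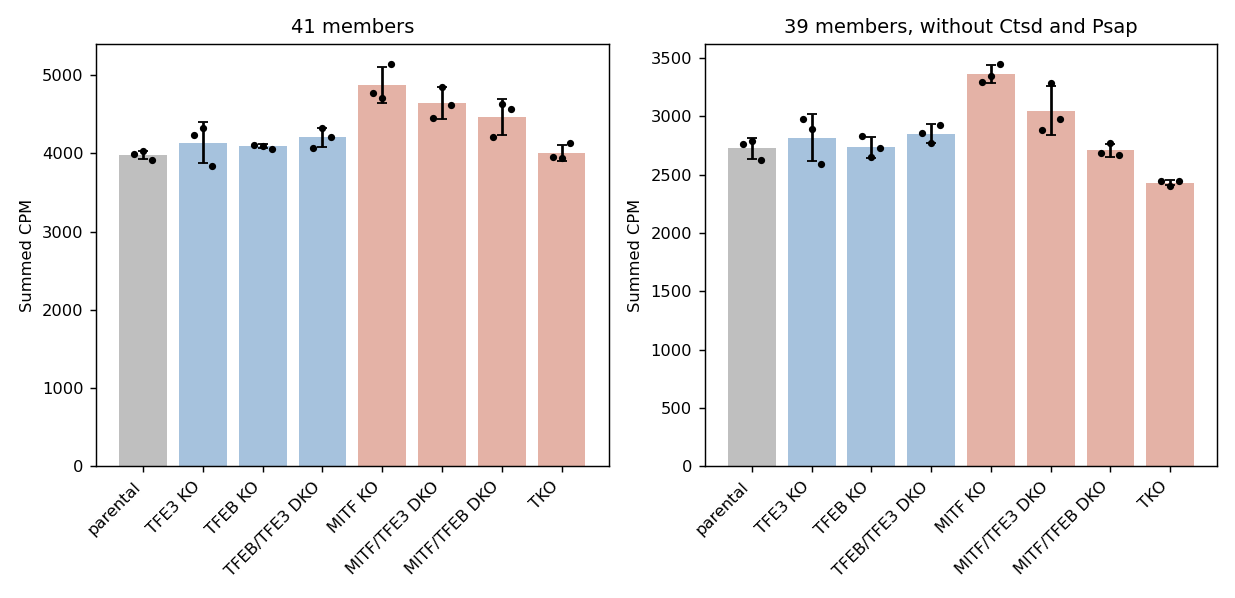
Summed CPM of the 41 members (left) and of 39 members without Ctsd and Psap (right) by line; bars are means, error bars are SD over 3 libraries and points are libraries. Gray marks parental cells, blue the KO lines with MITF and red the lines without it. MITF KO was highest in both panels, at 4874 and 3363 CPM, and TKO was lowest in the right panel, at 2431 CPM.

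Loss of MITF alone was followed by higher levels of most members. In MITF KO 22 of the 41 members rose and 3 fell, against 20.1% of all genes rising and 17.8% falling. The median member differed by 0.32 on the log2 scale and the median gene by 0.00. Under the rule of an at least 2-fold change at an unadjusted p under 0.05, 4 members were called, all higher, against 6.28% of all genes in either direction. The count of rises was 14 without parental replicate 3.

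Hgsnat, which encodes the membrane enzyme that acetylates heparan sulfate so that it can be broken down further, had the largest difference on the log2(CPM + 1) scale. It was measured at 110, 114 and 97.9 CPM in parental cells and at 410, 447 and 442 CPM in MITF KO, a log2 difference of 2.01 (SE 0.11, adjusted p = 3.5e-13). The MITF KO libraries stood far above every parental library. Idua, the alpha-L-iduronidase that removes iduronic acid from the same glycan, was at 5.18, 4.37 and 4.23 CPM in parental cells and at 12.7, 11.6 and 12.3 CPM in MITF KO (log2 difference 1.24, SE 0.18). Lipa, the acid lipase that frees cholesterol and fatty acids from lipoproteins, was at 58.3, 62.1 and 66.2 CPM and then at 141, 145 and 148 CPM (log2 difference 1.21, SE 0.10). Neither gene's libraries overlapped between the lines. Ctsf, a cysteine protease with few reads, rose from 0.788 ± 0.112 to 4.56 ± 0.68 CPM (log2 difference 1.63, SE 0.14), which rests on 16 to 20 reads in each parental library and 76 to 133 in each MITF KO library. As a plain ratio of CPM the rise of Ctsf was larger than that of Hgsnat.

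Naglu, the alpha-N-acetylglucosaminidase that removes the sugar HGSNAT has acetylated, rose in MITF KO from 81.5 ± 11.2 to 142 ± 10.8 CPM. Ctsd rose from 618 ± 36.6 to 1013 ± 78.1 CPM (log2 difference 0.71, SE 0.12, adjusted p = 4.0e-05). The 3 members that fell were Gla, the alpha-galactosidase A that trims glycosphingolipids, and the cysteine proteases Ctsz and Ctsl. Gla fell from 15.7 ± 2.65 to 7.97 ± 1.21 CPM, Ctsz from 359 ± 28.7 to 249 ± 9.55 CPM and Ctsl from 74.6 ± 5.44 to 53.6 ± 5.73 CPM. By role, 10 of 18 glycan enzymes and 7 of 8 lipid enzymes rose in MITF KO, and Ppt2 was the lipid enzyme that was not called. Of the 8 cysteine proteases 2 rose, 2 fell and 4 were not called, and neither activator was called.

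**Figure D2:**
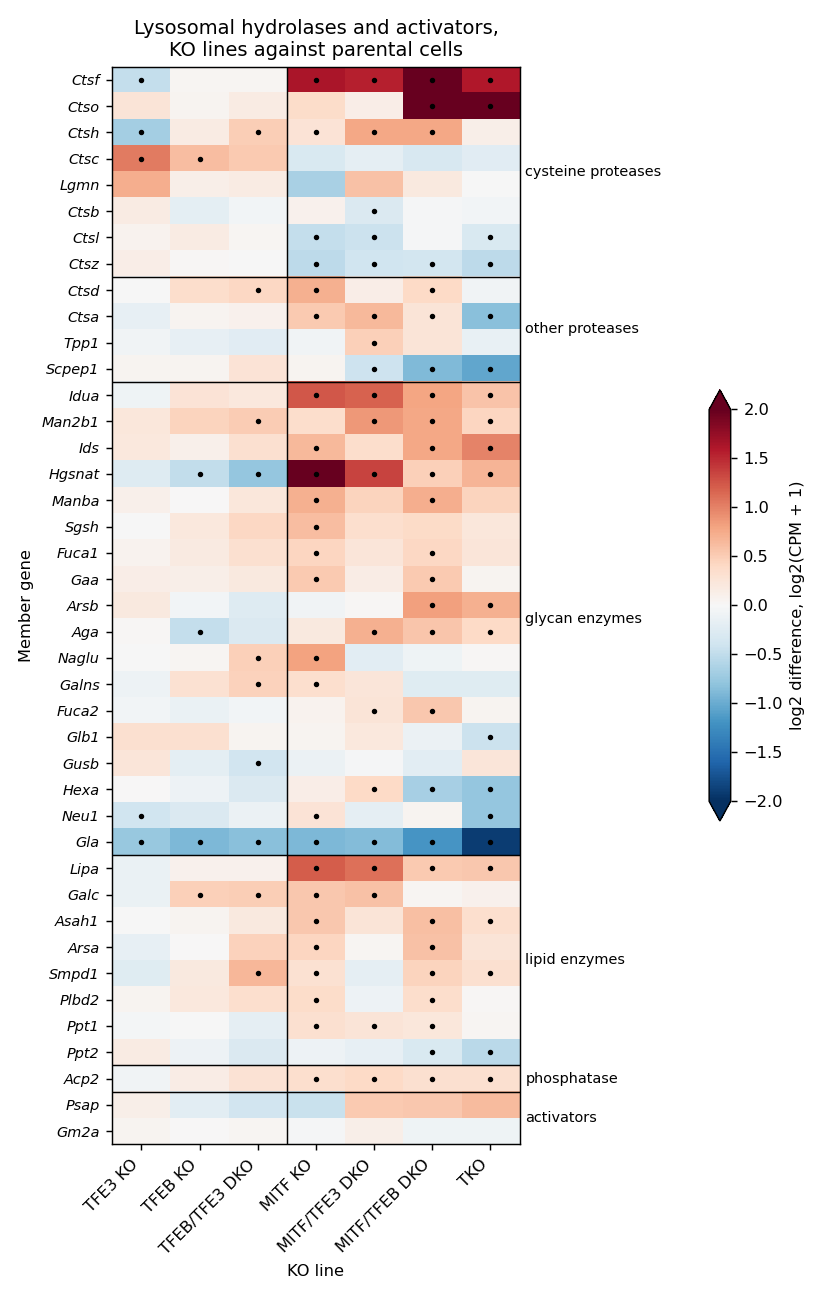
Log2 difference, on log2(CPM + 1), of each of the 41 members (rows, grouped by role) in the 7 KO lines (columns) from parental cells; a dot marks an adjusted p under 0.05, and the color scale stops at 2 in either direction. Rises gather in the 4 lines without MITF, 22 of them in MITF KO, and Gla is called lower in all 7 columns.

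Loss of TFE3 or TFEB in cells that keep MITF was followed by few changes among the members. In TFE3 KO 1 member rose and 4 fell, against 4.50% and 7.78% of all genes, and 1 member met the 2-fold rule, against 1.71% of all genes. The rise was in Ctsc, cathepsin C, an aminopeptidase that activates serine proteases of immune cells, from 7.91 ± 0.443 to 17.7 ± 4.08 CPM (log2 difference 1.05, SE 0.17, adjusted p = 0.00016). The falls were in Gla, to 8.83 ± 0.849 CPM, in the cysteine protease Ctsh, from 18.0 ± 0.701 CPM to 12.7, 9.82 and 10.5 CPM, in the sialidase Neu1, from 54.5, 48.7 and 46.7 CPM to 37.7 ± 3.03 CPM, and in Ctsf, to 0.287 ± 0.142 CPM. The Neu1 call was lost without parental replicate 1 (adjusted p = 0.051), and the Ctsf call without any 1 of parental replicates 2 and 3 and TFE3 KO replicates 1 and 3 (adjusted p up to 0.10). The count of rises was 2 without TFE3 KO replicate 3. For Neu1 and Ctsf the call was also lost when the median difference of the 50 genes on each side along the chromosome was subtracted (adjusted p = 0.080 and 0.052).

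In TFEB KO 2 members rose and 3 fell, against 2.25% and 2.59% of all genes, and none met the 2-fold rule, against 0.783% of all genes. Gla fell to 7.89 ± 0.83 CPM, Hgsnat from 107 ± 8.19 to 76.0 ± 5.19 CPM and Aga, the aspartylglucosaminidase that cleaves the link between glycans and asparagine, from 38.0 ± 4.26 to 27.0 ± 4.08 CPM. Ctsc rose to 12.8 ± 2.78 CPM and Galc, the galactocerebrosidase that degrades galactosylceramide, from 25.3 ± 1.81 to 35.8 ± 4.05 CPM. The rises were the less stable calls. The count of rises was 0 without parental replicate 1, without parental replicate 3 or without TFEB KO replicate 3, and 1 without parental replicate 2 or without TFEB KO replicate 2. The adjusted p of the lost calls reached 0.15 for Ctsc and 0.098 for Galc. The Galc call was also lost when the median of its neighbors along the chromosome was subtracted (adjusted p = 0.14). The fall of Aga was not called without parental replicate 1 or without TFEB KO replicate 3 (adjusted p = 0.058 in both), while those of Gla and Hgsnat were called with each library left out.

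In TFEB/TFE3 DKO 7 members rose and 3 fell, against 4.72% and 4.09% of all genes, and none met the 2-fold rule, against 0.958% of all genes. Smpd1, the acid sphingomyelinase, rose from 48.6, 50.3 and 45.4 CPM to 78.6, 75.7 and 75.8 CPM (log2 difference 0.66, SE 0.08, adjusted p = 1.1e-05). Ctsh rose to 25.8 ± 1.62 CPM, opposite to its fall in TFE3 KO. Galc, at 35.9 ± 1.65 CPM, and the alpha-mannosidase Man2b1, from 29.0 ± 2.46 to 41.8 ± 6.53 CPM, were also called higher. Hgsnat fell to 62.2 ± 6.74 CPM (log2 difference -0.78, SE 0.11), its lowest level in any line, and Gla fell to 8.34 ± 1.24 CPM. Gusb, the beta-glucuronidase, fell from 96.0 to 106 CPM in the parental libraries to 77.8 ± 9.81 CPM, a call that was lost in edgeR on whole reads (adjusted p = 0.054).

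The count of rises in TFEB/TFE3 DKO was 4 without parental replicate 1, without parental replicate 2 or without TFEB/TFE3 DKO replicate 3, 3 without TFEB/TFE3 DKO replicate 1 and 2 without parental replicate 3. The count of falls was 5 without TFEB/TFE3 DKO replicate 2. The call of Man2b1 was lost without any parental library and without TFEB/TFE3 DKO replicates 2 or 3 (adjusted p up to 0.13), that of Gusb without any parental library and without TFEB/TFE3 DKO replicates 1 or 3 (adjusted p up to 0.20), and that of Galc without parental replicate 3 or TFEB/TFE3 DKO replicate 1 (adjusted p up to 0.053). The genes around Man2b1 and Galc were higher too, with medians of 0.31 and 0.19 on the log2 scale, and both calls were lost when those medians were subtracted (adjusted p = 0.52 and 0.15). The Gusb call was lost after such subtraction as well (adjusted p = 0.11), although its neighbors had a median of -0.01.

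In the lines that lack MITF and 1 or both of the other factors, rises outnumbered falls in each, by the least in TKO. These comparisons share the parental libraries with those above, so their values are given side by side. In MITF/TFE3 DKO 14 members rose and 5 fell, against 20.2% and 21.7% of all genes, and 4 met the 2-fold rule, against 5.87% of all genes. In MITF/TFEB DKO 22 rose and 5 fell, against 28.8% and 27.3% of all genes, and 3 met the 2-fold rule, against 13.7% of all genes. In TKO 12 of the 41 members rose and 9 fell, against 28.3% and 27.9% of all genes. The share of members that rose there was thus close to the background. With each library left out in turn, rises in TKO ranged from 10 to 11 and falls from 8 to 9. In TKO 4 members met the 2-fold rule, against 14.7% of all genes. The median member differed from parental cells by 0.25 in MITF/TFE3 DKO, by 0.34 in MITF/TFEB DKO and by 0.06 in TKO, while the median gene differed by 0.01 to 0.02.

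5 members, Acp2, Ctsf, Hgsnat, Idua and Lipa, were called higher in all 4 lines without MITF, and 2, Ctsz and Gla, were called lower in all 4. That is 12.2% and 4.88% of the members, against 7.34% and 6.19% of all genes. In the study TFE3 and TFEB were removed from parental and from MITF KO cells. The 4 lines without MITF thus share an MITF KO origin, and a trait of that line could recur in all of them. Over these lines 29 members, or 70.7%, were higher in at least 1 line and 10, or 24.4%, were lower in at least 1, against 44.3% and 44.1% of all genes. Hgsnat was at 245, 321 and 260 CPM in MITF/TFE3 DKO, at 157, 159 and 131 CPM in MITF/TFEB DKO and at 180, 167 and 169 CPM in TKO. Every one of these libraries was above every parental library, and none reached the MITF KO libraries. The 50 genes on each side of Hgsnat had median differences of 0.19 in MITF KO, 0.41 in MITF/TFE3 DKO, 0.51 in MITF/TFEB DKO and 0.60 in TKO, against differences of 2.01, 1.34, 0.47 and 0.68 for Hgsnat itself. In MITF/TFEB DKO and TKO the rise of Hgsnat over parental cells was thus close in size to that of its neighbors, whose part in it was not tested.

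Lipa stayed near its MITF KO level in MITF/TFE3 DKO, at 135 ± 6.11 CPM, and was at 90.1 ± 7.34 CPM in MITF/TFEB DKO and 90.4 ± 1.07 CPM in TKO. Idua was at 11.7 ± 1.60, 8.65 ± 0.94 and 7.34 ± 1.03 CPM in the same order. Ctsf was at 4.25 ± 0.36, 6.51 ± 0.875 and 4.44 ± 0.506 CPM. Acp2, the lysosomal acid phosphatase, differed from parental cells by 0.32 to 0.40 on the log2 scale in the 4 lines, the smallest of the 5 common rises. Ctsz was at 271 ± 23.8 CPM in MITF/TFE3 DKO, 278 ± 8.85 in MITF/TFEB DKO and 249 ± 7.57 in TKO, and its call in MITF/TFEB DKO was lost when its neighbors' median was subtracted (adjusted p = 0.091).

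Gla was lower than in parental cells in each of the 7 KO lines, with 14.8, 13.6 and 18.7 CPM in parental cells and at most 9.77 CPM in any other library. It was lowest in TKO, at 3.83, 3.85 and 2.71 CPM (log2 difference -1.90, SE 0.16, adjusted p = 8.7e-10). The gene lies at chrX:133488891-133501904 of mm39 on the minus strand, and Rpl36a lies over its 3′ end on the other strand. Since the strand used in counting is not given in the sources used here, reads of the 2 genes may not have been separated. The same holds for Scpep1 with Scpep1os, Ctsa with Pltp, Ctsf with Actn3, Ctso with Tdo2, Ctsz with Nelfcd, Neu1 with 1110038B12Rik, Idua with Gm42151, Gusb with Vkorc1l1, Arsb with Gm59976, Ctsb with Fdft1 and Acp2 with Ddb2, while Gm49369 lies over the 3′ end of Ctsd on its own strand.

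Scpep1, a serine carboxypeptidase, was at 366, 371 and 321 CPM in parental cells and at 354, 379 and 359 CPM in MITF KO, overlapping ranges. It was at 239, 289 and 266 CPM in MITF/TFE3 DKO, at 196, 198 and 175 CPM in MITF/TFEB DKO and at 178, 168 and 166 CPM in TKO. All 3 of these lines lay below the parental libraries, with log2 differences of -0.41, -0.89 and -1.04. Hexa, the alpha subunit of the beta-hexosaminidase that degrades GM2 ganglioside, rose to 332 ± 10.2 CPM in MITF/TFE3 DKO from 252 ± 10.3 CPM in parental cells, and fell to 158 ± 16.8 CPM in MITF/TFEB DKO and 147 ± 7.29 CPM in TKO.

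Ctsa, the carboxypeptidase that also shields beta-galactosidase and neuraminidase from degradation, was higher than in parental cells in 3 of the lines without MITF and lower in TKO. Its libraries read 88.6, 76.2 and 84.0 CPM in parental cells, 120, 114 and 124 CPM in MITF KO, 113, 146 and 135 CPM in MITF/TFE3 DKO, 105, 94.8 and 97.4 CPM in MITF/TFEB DKO and 44.4, 47.0 and 47.0 CPM in TKO. The TKO libraries were the lowest of all 24. Its partner Neu1 was at 28.7 ± 2.67 CPM in TKO, against 46.7 to 54.5 CPM in parental cells (log2 difference -0.78, SE 0.09). Glb1, the beta-galactosidase of the same complex, was called lower in TKO as well (log2 difference -0.42, SE 0.12, adjusted p = 0.0035).

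Ctso, a cysteine protease, had few reads in 6 lines and more in MITF/TFEB DKO and TKO. It had 0, 2 and 0 reads in the parental libraries, 2, 1 and 19 in MITF KO and at most 12 in any library of TFE3 KO, TFEB KO, TFEB/TFE3 DKO and MITF/TFE3 DKO. In MITF/TFEB DKO it had 77, 133 and 221 reads and in TKO 130, 78 and 98 reads. The ratio to the 2 parental reads was 195 in MITF/TFEB DKO (exact 95% interval 53.7 to 1617) and 144 in TKO (39.5 to 1193), intervals that cover counting error alone. Beside it, Arsb, the arylsulfatase B that removes sulfate from dermatan sulfate, rose in the same 2 lines, from 8.08 ± 0.311 CPM to 15.1 ± 0.957 and 13.9 ± 0.49 CPM. Ids, the iduronate-2-sulfatase, was highest in TKO, at 43.0 ± 2.89 CPM against 21.1 ± 2.27 CPM in parental cells, and the genes around it were higher by a median of 0.59 on the log2 scale there.

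**Figure D3:**
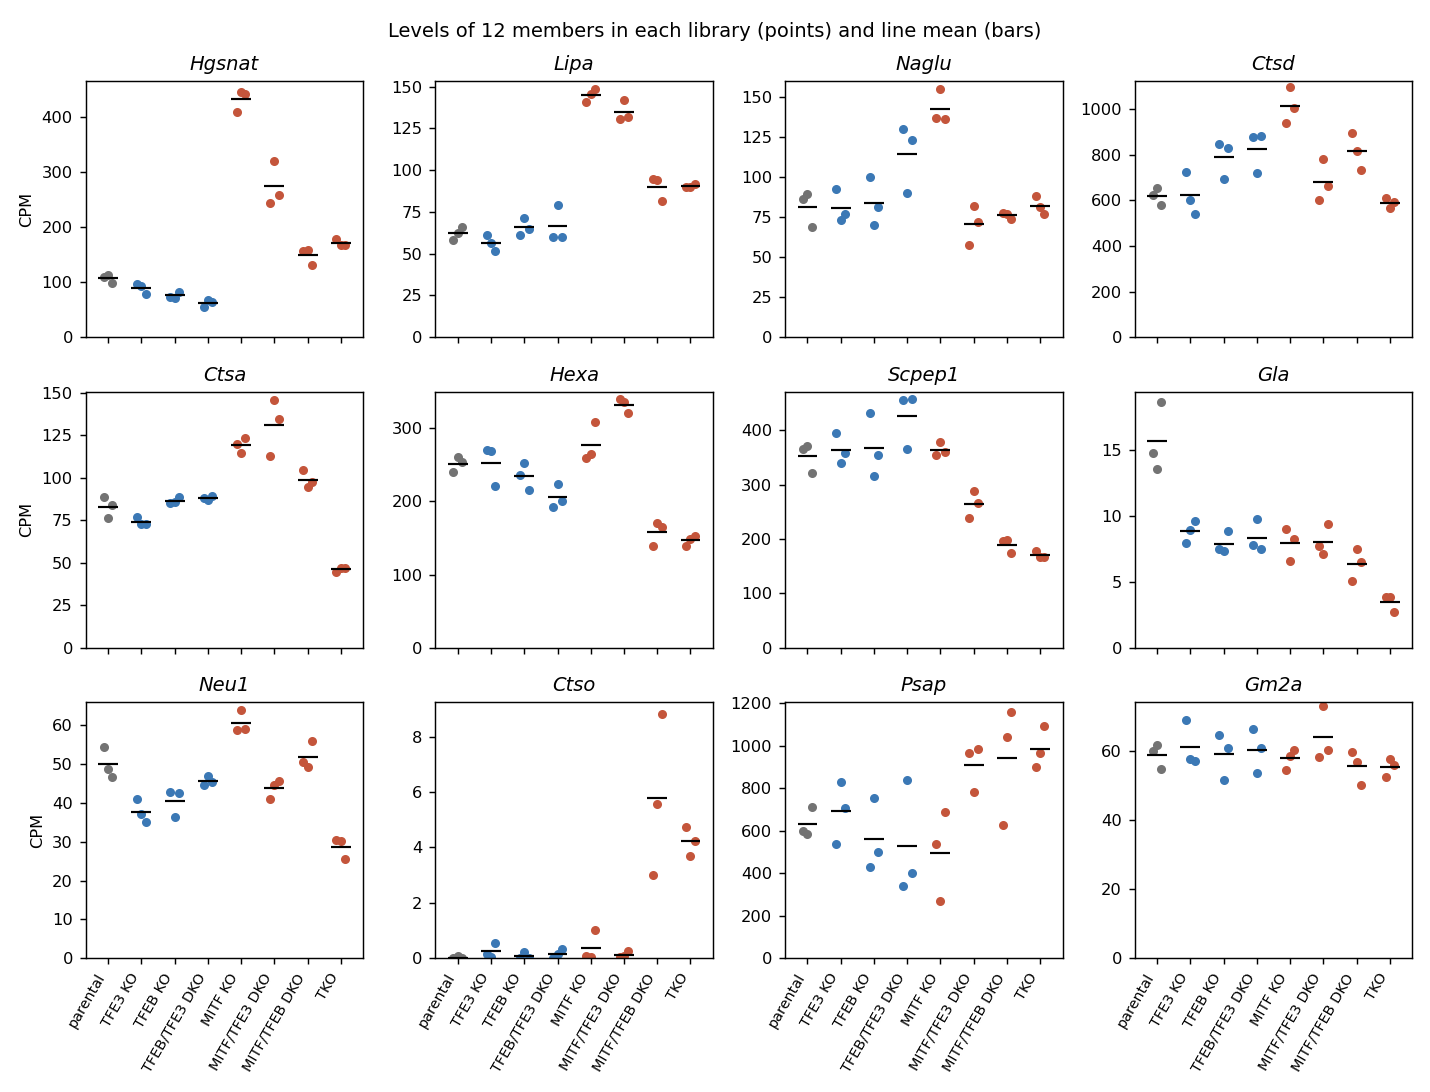
CPM (vertical axes, each starting at 0) of 12 members in each of the 24 libraries (points) by line, with line means as bars; gray marks parental cells, blue the KO lines with MITF and red the lines without it. Hgsnat reached 410 to 447 CPM in MITF KO and at most 321 CPM elsewhere, Ctsa was lowest in TKO, and Gm2a stayed between 50.1 and 72.8 CPM in all libraries.

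Neither of the 2 activators was called in any KO line against parental cells, unlike most enzymes. Gm2a, the GM2 activator, ranged from 50.1 to 72.8 CPM over all 24 libraries, and its log2 differences from parental cells lay between -0.08 and 0.11 (SE 0.11 each, smallest adjusted p = 0.41). Psap was at 598, 585 and 713 CPM in parental cells and was not called in any KO line against them. Within lines it varied widely, with 536, 270 and 686 CPM in MITF KO, 339, 838 and 402 CPM in TFEB/TFE3 DKO and 626, 1040 and 1160 CPM in MITF/TFEB DKO. In MITF/TFE3 DKO it was at 965, 783 and 984 CPM and in TKO at 898, 965 and 1090 CPM. Both lines lay above every parental library, and the adjusted p in TKO was 0.081. Lgmn, the asparaginyl endopeptidase that matures several cathepsins, was the other member called in no KO line.

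The spread of Psap within lines was shared by a few other members and by genes outside the list. In each of the 8 lines the library with the most Psap was also the library with the most Tpp1, a tripeptidyl peptidase, and the most Fuca2, an alpha-fucosidase. It had the most Ctsb and Lgmn in 7 of the 8 lines. Fuca1, the other alpha-fucosidase, and Naglu were lowest in that library in 7 of 8 lines. With Psap left out, 4 members were highest in that library in at least 7 lines and 2 were lowest there in at least 7. Among all genes 5.28% were highest in that library in at least 7 lines and 3.25% were lowest there in at least 7. That library had the fewest reads on genes of its line in 4 of the 8 lines. The part of this library difference in the calls of Psap, Tpp1 and Lgmn between MITF-null lines was not tested.

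To ask what TFEB and TFE3 contribute in cells without MITF, the MITF-null lines were compared with each other. Loss of TFEB can be seen in 2 comparisons that share no library, MITF/TFEB DKO against MITF KO and TKO against MITF/TFE3 DKO. Between the 2 lines without MITF and TFEB few genes differed. In TKO against MITF/TFEB DKO 5.41% of all genes rose and 6.99% fell. A state common to these 2 lines would recur in both comparisons, and whether they share a founding clone is not given in the sources used here. In the first comparison, 9 members rose and 10 fell, against 25.1% and 23.9% of all genes. In the second, 5 rose and 17 fell, against 26.6% and 24.2% of all genes, and the median member differed by -0.20 while the median gene differed by 0.01. 8 members fell in both: Ctsa, Galc, Galns, Hexa, Hgsnat, Idua, Lipa and Scpep1. They were 80.0% of the members that fell in the first comparison and 47.1% of those that fell in the second. Of all genes that fell in the first comparison, 53.7% fell in the second. Arsb and Ctso rose in both, which was 22.2% of the rises in the first comparison and 40.0% of those in the second, against 54.0% of all genes that rose in the first. Aga, Man2b1 and Ctsh rose in the first and fell in the second. The members had the same sign in both comparisons for 27 of 41, or 65.9%, against 67.4% of all genes.

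Among the largest falls in MITF/TFEB DKO against MITF KO were Hgsnat (log2 difference -1.54, SE 0.11), Scpep1 (-0.94, SE 0.11), Naglu (-0.89, SE 0.15) and Hexa (-0.81, SE 0.09), with adjusted p of 2.5e-05 or less. In TKO against MITF/TFE3 DKO they were Ctsa (-1.48, SE 0.08), Hexa (-1.17, SE 0.09), Gla (-1.03, SE 0.16) and Hgsnat (-0.67, SE 0.11), with adjusted p of 1.5e-05 or less. For these the libraries of the lines compared did not overlap. Naglu, which fell from 142 ± 10.8 to 76.2 ± 1.93 CPM in the first comparison, was at 82.0 ± 5.54 CPM in TKO and 70.4 ± 12.4 CPM in MITF/TFE3 DKO, with no call in the second. Of the members that fell in both, Galc, Galns, Idua, Lipa and, to a smaller extent, Scpep1 and Hexa lay among genes that fell as well in both comparisons. Ctsa did in the second (neighbor median -0.26, against -1.48 for the gene). For Galns and Lipa the values were close, with neighbor medians of -0.69 and -0.56 in the first comparison and -0.77 and -0.56 in the second, against differences of -0.59 and -0.68, and -0.50 and -0.57, for the members. For Galc the neighbor medians were -0.22 and -0.41, against -0.50 and -0.50 for the gene, and for Idua -0.29 and -0.41, against -0.46 and -0.61. For Scpep1 they were -0.24 and -0.14, against -0.94 and -0.63, and for Hexa -0.08 and -0.15, against -0.81 and -1.17. The part of the neighborhood in these falls was not tested.

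The members that rose in both comparisons on loss of TFEB were Ctso (log2 difference 2.27, SE 0.26, in the first comparison and 2.20, SE 0.26, in the second) and Arsb (0.90, SE 0.12, and 0.70, SE 0.12). Ctsh rose in the first, from 22.1 ± 1.21 to 31.5 ± 0.376 CPM, and fell in the second. Psap was called higher in MITF/TFEB DKO against MITF KO (0.97, SE 0.31, adjusted p = 0.012), and the call was lost without MITF KO replicate 2 or MITF/TFEB DKO replicate 3 (adjusted p up to 0.12). In TKO against MITF/TFE3 DKO, Ids (0.65, SE 0.15) and Smpd1 (0.50, SE 0.08) were also called higher. Their neighbors had medians of 0.57 and 0.44, and neither was called after subtraction (adjusted p = 0.72 and 0.60).

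**Figure D4:**
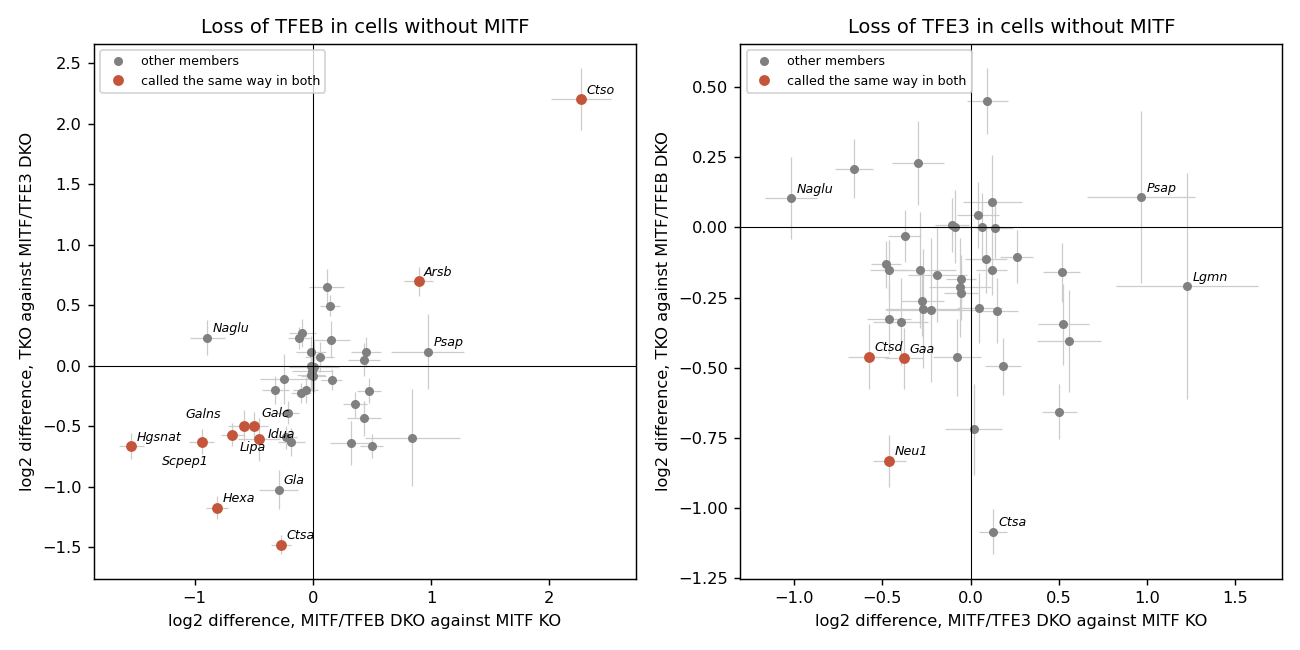
Log2 differences, on log2(CPM + 1), of the 41 members on loss of TFEB (left) and TFE3 (right) in cells without MITF, in the 2 comparisons that share no library (axes); lines are standard errors and red points were called in the same direction in both. On loss of TFEB 8 members fell and 2 rose in both comparisons, and on loss of TFE3 3 members fell in both.

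Loss of TFE3 was read from MITF/TFE3 DKO against MITF KO and from TKO against MITF/TFEB DKO, which share no library either. In the first, 7 members rose and 10 fell, against 18.1% and 19.7% of all genes. In the second, 1 rose and 8 fell, against 5.41% and 6.99% of all genes, with a median member difference of -0.18 and a median gene difference of 0.01. Ctsd, Gaa and Neu1 fell in both, which was 30.0% of the falls in the first and 37.5% of those in the second, and no member rose in both. Of all genes that fell in the first comparison, 5.54% fell in the second. The sign was the same in both for 22 of 41 members, or 53.7%, against 48.3% of all genes.

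In MITF/TFE3 DKO against MITF KO the largest falls were Naglu (log2 difference -1.02, SE 0.15), Hgsnat (-0.66, SE 0.11), Ctsd (-0.58, SE 0.12) and Smpd1 (-0.48, SE 0.08). Ctsd went from 939, 1095 and 1005 CPM in MITF KO to 601, 782 and 663 CPM in MITF/TFE3 DKO, with no overlap. The largest rises were Lgmn (1.23, SE 0.40), Psap (0.97, SE 0.31), Tpp1 (0.56, SE 0.18) and Man2b1 (0.52, SE 0.14), and each lost its call when MITF KO replicate 2 was left out (adjusted p up to 0.12 for Lgmn, 0.16 for Psap, 0.15 for Tpp1 and 0.056 for Man2b1). The calls of Lgmn and Man2b1 were lost as well after subtraction of their neighbors' medians (adjusted p = 0.057 and 0.055). Psap and Tpp1 also lost it without MITF/TFE3 DKO replicates 1 or 3, and Lgmn without MITF KO replicate 1 or MITF/TFE3 DKO replicates 1 or 3. The count of rises in this comparison was 2 without MITF KO replicate 2, and 4 without MITF/TFE3 DKO replicate 1 or without MITF/TFE3 DKO replicate 3.

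In TKO against MITF/TFEB DKO the largest falls were Ctsa (log2 difference -1.08, SE 0.08, adjusted p = 4.6e-10), Neu1 (-0.83, SE 0.09), Gla (-0.72, SE 0.16) and Ctsh (-0.66, SE 0.10). Ctsa had not fallen in MITF/TFE3 DKO against MITF KO, where it was at 131 ± 16.7 and 119 ± 4.67 CPM. Neu1 went from 50.6, 49.2 and 55.8 CPM in MITF/TFEB DKO to 30.4, 30.2 and 25.7 CPM in TKO. Gusb was the member that rose, from 87.6 ± 11.4 to 119 ± 3.20 CPM, and it was not called without MITF/TFEB DKO replicate 1 or without TKO replicate 3 (adjusted p up to 0.085), so that the count of rises was then 0.

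The members with TCACGTG in a promoter window gave these values in the same comparisons. In MITF KO 6 of the 9 rose and 1 fell, with a median difference of 0.52, against 11 and 2 of the 25 members whose windows lack it, with a median of 0.28. In TKO against parental cells none of the 9 rose and 3 fell, with a median of -0.01, against 9 and 6 of the 25, with a median of 0.24. On loss of TFE3 in TKO against MITF/TFEB DKO 4 of the 9 fell and the median was -0.34, against 3 of the 25 and -0.15. In MITF/TFE3 DKO against MITF KO 4 of the 9 fell and 1 rose, with a median of -0.29, against 3 falls, 4 rises and a median of 0.04 for the 25. On loss of TFEB in MITF/TFEB DKO against MITF KO 3 of the 9 fell and none rose, with a median of -0.24, against 5 falls, 7 rises and a median of -0.01. In TKO against MITF/TFE3 DKO 3 of the 9 fell and none rose, with a median of -0.20, against 10 falls, 4 rises and a median of -0.12. Against parental cells 1 of the 9 rose and 1 fell in MITF/TFE3 DKO, where 10 and 3 of the 25 did, and 4 rose and 1 fell in MITF/TFEB DKO, where 13 and 4 did. In each KO line with MITF at most 2 of the 9 and 3 of the 25 rose. Members with the motif thus did not fall more often in every comparison, and the split was not tested.

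Whether the loss of TFEB or TFE3 differed between cells with and without MITF was tested as an interaction. For TFEB, the interaction (the change without MITF minus the change with it) was positive for 6 members and negative for 12, against 17.7% and 17.4% of all genes. For TFE3, it was positive for 3 and negative for 7 members, against 10.2% and 10.0% of all genes, and the count of 7 was 4 without parental replicate 3 and 3 without MITF/TFE3 DKO replicate 1. Hgsnat fell by 1.05 more on the log2 scale on loss of TFEB in cells without MITF than in cells with it (interaction -1.05, SE 0.15, adjusted p = 8.6e-06). Naglu had an interaction of -0.93 (SE 0.21) with loss of TFEB and of -1.01 (SE 0.21) with loss of TFE3. Its level was 83.9 ± 15.2 CPM in TFEB KO and 80.7 ± 10.3 CPM in TFE3 KO, both overlapping the parental libraries, whereas both DKO lines without MITF lay below MITF KO. Ctsd likewise had negative interactions with both losses (-0.67, SE 0.16, and -0.58, SE 0.16), the second of which was lost without MITF/TFE3 DKO replicate 1 (adjusted p = 0.0504). Ctsh had the largest positive interaction with loss of TFE3 (1.18, SE 0.14), falling in TFE3 KO and rising in MITF/TFE3 DKO over MITF KO.

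Other genes of the pathway were counted for comparison. The first list held lysosomal proteins outside the members, mostly soluble enzymes. The others held proteins that deliver or mature the enzymes, and cathepsin inhibitors. Of the 17 genes on the first list 2 rose and 1 fell in MITF KO and 5 rose and none fell in MITF/TFE3 DKO. In MITF/TFEB DKO 6 rose and 1 fell, and in TKO 3 rose and 3 fell, with every line set against parental cells. Of all genes, 20.1%, 20.2%, 28.8% and 28.3% rose and 17.8%, 21.7%, 27.3% and 27.9% fell in the same order of lines. The share of the listed genes that rose was thus below the background in MITF KO and TKO. Hyal1, a hyaluronidase, was the largest of the rises in MITF KO (log2 difference 1.19), and it was called lower in both DKO lines than in MITF KO (-1.28 in MITF/TFEB DKO and -1.17 in MITF/TFE3 DKO). Dpp7, a dipeptidyl peptidase, was the largest fall in TKO (-1.33), and its difference between TKO and MITF/TFE3 DKO was -2.21. Of 11 delivery and maturation genes, among them the mannose 6-phosphate receptors and the phosphotransferase subunit Gnptab, 5 rose and none fell in MITF KO and in MITF/TFE3 DKO, 3 rose and none fell in MITF/TFEB DKO, and 5 rose and 2 fell in TKO, against the same shares of all genes. Of the 3 cathepsin inhibitors, Cst3, which encodes cystatin C, rose by 1.61 in MITF/TFEB DKO and 0.86 in TKO, and Cst6 by 0.97 and 1.10.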

How the data were processed

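RNA of 8 B16-F10-luc2 lines, 3 libraries each, was prepared with a QuantSeq 3′ end kit. Per the labels, reads were checked with FastQC 0.11.9, trimmed with Trim Galore 0.6.5 and cutadapt 2.10, and aligned to mm39 with STAR 2.7.8a; the counter, annotation and any gene filter are not given in the sources used here. The deposited signal is a table of edgeR-normalized counts of 12010 genes, in which 99.9% of values were whole multiples of 1 read (tolerance 0.01 reads), so that reads per library were recovered. The members and lists were chosen with earlier results of these data known.

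The values, as CPM, were analysed as log2(CPM + 1) with limma 3.58.1 (trend) in R 4.3.3, all 24 libraries in 1 fit, with Benjamini-Hochberg adjustment over all genes. On simulated counts with 200 of 12010 genes changed in MITF KO against parental cells, 98% of 4-fold and 95% of 2-fold changes were recovered. The simulation gave all genes the same dispersion and had no library effects. Its rates thus do not describe members that varied widely between libraries of a line, such as Psap. The study's thresholds of a 2-fold change at p under 0.05 were counted beside it. They were applied here to the limma differences of log2(CPM + 1), whereas the study used edgeR. Changes of over 2-fold at low levels can thus be missed. Among called members with the same sign in every library, those with the 4 greatest increases and the 4 greatest decreases in each comparison were named, plus the activators, the 3 most abundant members and the targeted genes. Other members were named after their values were seen. Alternatives were edgeR 4.0.16 on whole reads, pseudocounts of 0.25 and 5, a minimum mean of 5 CPM, median-of-ratios and quantile scaling, a fit of the compared libraries, a replicate block, subtraction of the median of 50 genes on each side (11659 genes with a GENCODE position), and each library left out. No column was left unused. Interval and read counts cover counting error only.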

Additional observations from a re-analysis of the deposited data

Results flagged for a closer look

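The effect of losing TFEB or TFE3 differed between cells with and without MITF, by an interaction term in limma with an adjusted p under 0.05, for 6 members upward and 12 downward with TFEB (17.7% and 17.4% of all genes) and for 3 and 7 with TFE3 (10.2% and 10.0% of all genes). The values given are those of the up to 4 largest in each direction among members named by rule, 15 in all. For loss of TFEB the interaction on the log2 scale was positive for Ctso (2.21), Psap (1.18), Arsb (0.95) and Aga (0.84), and negative for Hgsnat (-1.05), Scpep1 (-0.99), Galc (-0.98) and Naglu (-0.93). In edgeR on whole reads those of Ctso and Psap were not called (adjusted p = 0.48 and 0.056). The Psap interaction was also lost when any 1 of 7 libraries was left out, parental replicates 1 and 3, MITF KO replicate 2, TFEB KO replicates 1 and 3 and MITF/TFEB DKO replicates 2 and 3 (adjusted p up to 0.14).

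For loss of TFE3 it was positive for Ctsh (1.18), Gla (0.77) and Aga (0.50), and negative for Naglu (-1.01), Ctsc (-0.92), Ctsd (-0.58) and Ctsb (-0.54). The Gla interaction goes with a level of 7.97 CPM in MITF KO and 8.07 CPM in MITF/TFE3 DKO, where the fall from parental cells was already present without loss of TFE3. It was lost without parental replicate 3, MITF KO replicate 2 or MITF/TFE3 DKO replicate 3 (adjusted p up to 0.064). The Aga interaction was lost without parental replicate 1 or TFE3 KO replicate 1 (adjusted p up to 0.062) and after subtraction of the neighbors' median (adjusted p = 0.15). The Ctsd interaction was lost without MITF/TFE3 DKO replicate 1 (adjusted p = 0.0504).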

How the results depend on the processing

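Of 440 recomputed counts of called members 388 stayed within 1.5 times the count reported and none of the named values reversed its direction. A replicate block moved no count by over 1.5 times (21 instead of 22 rises in MITF KO). Libraries with the same replicate number had a mean correlation of 0.022, against -0.013 for other numbers. The same-number values ran from -0.66 to 0.77, so the mean cannot show whether the libraries of some lines were paired. Quantile normalization gave 2 rises in TFE3 KO. A fit of the compared libraries alone gave 2 falls in TFE3 KO, 0 rises in TFEB KO and 3 rises in TFEB/TFE3 DKO, and subtraction of the neighbors' median gave 2 falls in TFE3 KO and 1 rise in TFEB KO. edgeR gave 3 positive interactions with loss of TFEB. The rule of a 2-fold change at an unadjusted p under 0.05 gave, for rises and falls against parental cells, 4 and 0 in MITF KO, 0 falls in TFE3 KO, 0 and 0 in TFEB KO and in TFEB/TFE3 DKO, 4 and 0 in MITF/TFE3 DKO, 2 and 1 in MITF/TFEB DKO and 2 and 2 in TKO. It gave 1 and 1 in both DKO lines against MITF KO, 1 and 3 in TKO against MITF/TFE3 DKO, 0 and 1 in TKO against MITF/TFEB DKO, 2 and 1 for the interaction with loss of TFEB and 1 and 1 for that with loss of TFE3. The cause of these differences was not tested, apart from the stricter rule.

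With each library left out in turn, rises ranged from 14 to 19 in MITF KO, 1 to 2 in TFE3 KO, 0 to 3 in TFEB KO, 2 to 9 in TFEB/TFE3 DKO, 2 to 7 in MITF/TFE3 DKO against MITF KO and 0 to 1 in TKO against MITF/TFEB DKO. Falls ranged from 2 to 5 in TFEB/TFE3 DKO, and negative interactions with loss of TFE3 from 3 to 9. Of 642 such values of named members 586 kept their call and 56 lost it. Members with few reads, such as Ctso and Ctsf, were not tested with a minimum mean of 5 CPM, and depth limits their precision.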
